A study of Mus musculus with 2 samples.

Results

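Transcript levels of 7 tetraspanin genes, Cd9, Cd63, Cd81, Cd82, Cd151, Cd53 and Cd37, were read in 17720 single mouse cells collected while primed epiblast stem cells returned to a naive state. The genes were found by their symbols, all 7 among the 33963 gene rows of the table. CD9 and CD63 had a technical role as well, since their proteins carried the sample tags: biotinylated antibodies against both were bound by a streptavidin that bears an oligonucleotide tag, and the tag of a cell names its population.

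Tetraspanins are small proteins that cross the membrane repeatedly and gather integrins, immunoglobulin proteins and proteases into membrane domains. CD9, CD81 and CD151 act mostly at the cell surface, where CD9 and CD81 take part in cell fusion and CD151 holds laminin-binding integrins. CD63 lies mainly in late endosomes and lysosomes, and CD9, CD63 and CD81 are the usual marker proteins of extracellular vesicles. CD82 restrains cell motility, and CD53 and CD37 are largely restricted to blood cells.

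There were 5 tagged populations. The primed cells were epiblast stem cells of the Oct4GIP reporter line, and d8 and d16 cells were the same line after 8 and 16 days with AICAR, which activates AMPK, plus the cytokine LIF. The d16+10p cells were reverted cells grown on for 10 passages in 2iL, a naive medium of kinase inhibitors and LIF, and the naive cells were embryonic stem cells carrying Rex1-GFP. The strain given for all of them is 129/Ola. Naive and primed cells are different cell lines, so that cell state and line cannot be told apart between them. Per the study's methods, Oct4GIP cells were maintained on fibronectin with FGF2 and activin A. They were plated on mouse embryonic fibroblast feeders 1 day before the treatment. The study states that feeders were also required during the 16 days of treatment, so d8 and d16 cells came from cultures with feeders. All cells went into 1 cDNA library and each population was 1 tagged sample, so no difference between populations has a replicate check and all intervals cover counting error only.

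The primed tag was on 1826 of the cells in the table, and 9627 carried d8, 4315 d16, 1151 d16+10p and 801 naive, where 500, 9000, 9000, 1000 and 500 had been loaded. The primed tag thus stood on 365.2% of the loaded number and the naive tag on 160.2%. The median depth was 10185 to 21551 reads per cell. The study had assigned each cell to 1 tag, so that 0 cell barcode numbers occurred under more than 1 tag. This follows from the assignment and is no check of it. Clustering without any of 31 tetraspanin genes gave 18 clusters. Of the primed-tagged cells, 473 fell in the 4 clusters with high Pou5f1, the gene of the pluripotency factor OCT4, and the other 1353 did not. The study considered the Oct4-negative cells of its primed sample to be feeder cells. Of the 1353, the largest numbers were 430 in cluster 2, where d8 was the most frequent tag, and 237 in the fibroblast-like cluster 6. For naive, 564 cells were Pou5f1-high, and for d16+10p 936. Levels of Pou5f1-high cells are therefore given beside those of the whole tag. The d16 cells were split by their own Dppa5a, a gene of naive cells, at 1000 CPM into 1278 Dppa5a-high and 3037 Dppa5a-low cells.

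Cd9 lies at chr6:125460266-125494791 on the minus strand, Cd63 at chr10:128900989-128912822 and Cd81 at chr7:143052739-143067934, both on the plus strand (GENCODE M21, GRCm38). The 250 bases before the RefSeq starts of these 3 genes are shown (GRCm38.p6, 5′ to 3′ on the strand of the gene), because they are the 3 vesicle markers and Cd9 had another pattern than Cd63 and Cd81 across the populations. The windows are chr6:125494761-125495010 for Cd9, chr10:128909095-128909344 for Cd63, which lies inside the longer GENCODE gene, and chr7:143052500-143052749 for Cd81. Capitals mark GGGCGG, the GC box bound by Sp1-type factors.
Cd9: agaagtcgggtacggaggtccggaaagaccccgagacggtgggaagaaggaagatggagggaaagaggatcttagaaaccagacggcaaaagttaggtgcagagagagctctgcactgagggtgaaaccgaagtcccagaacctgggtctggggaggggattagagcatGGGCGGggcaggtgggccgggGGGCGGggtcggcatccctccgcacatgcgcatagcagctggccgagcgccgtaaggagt
Cd63: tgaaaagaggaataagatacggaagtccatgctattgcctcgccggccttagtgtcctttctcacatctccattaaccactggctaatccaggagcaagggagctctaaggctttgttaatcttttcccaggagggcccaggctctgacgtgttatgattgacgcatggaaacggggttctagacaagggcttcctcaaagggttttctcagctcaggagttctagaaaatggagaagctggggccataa
Cd81: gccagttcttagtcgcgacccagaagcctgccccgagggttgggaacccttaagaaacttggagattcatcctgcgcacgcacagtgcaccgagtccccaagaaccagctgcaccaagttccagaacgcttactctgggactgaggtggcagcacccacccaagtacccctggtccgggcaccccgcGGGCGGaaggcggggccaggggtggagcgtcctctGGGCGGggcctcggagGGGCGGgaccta
The Cd9 window held 2 GC boxes, the Cd81 window 3 and the Cd63 window 0. Searched on both strands, GGGCGG occurred in 32.7% of 32851 RefSeq windows of this length. CCAAT (33.9% of windows), the estrogen-related receptor motif AAGGTCA (4.08%) and the lysosomal E-box GTCACGTG (1.85%) were in none of the 3 windows. The share of G and C was 61.6% for Cd9, 48.8% for Cd63 and 65.6% for Cd81, against a median of 52.4% over all windows.

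Cd9, the fusion protein and tag carrier, was lowest in primed cells. Its summed level, in CPM (counts of the gene per 1000000 reads of the group), was 124 in primed (120.0 to 128), 210.2 in d8 (208 to 212), 375 in d16 (369.9 to 380.1), 277 in d16+10p (271 to 284) and 413 in naive (95% exact Poisson interval 403 to 423). The order was thus naive, d16, d16+10p, d8 and primed, and no neighbours in it had overlapping intervals. Within Pou5f1-high cells the level was 452 in naive, 99.7 in primed and 286 in d16+10p, and in Dppa5a-high d16 cells it was 371. Primed cells were the lowest and naive cells the highest in either view. The 420 primed-tagged cells of cluster 12, the main Pou5f1-high cluster of that tag, had 85.4 CPM, while the 53 primed-tagged cells found in cluster 5 among d16 cells had 286 CPM. The primed Pou5f1-high set is thus mixed, as it holds both. Dppa5a was 3100.8 CPM in the 53 cells and 96.45 CPM in the 420.

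Cd63, the lysosomal tetraspanin and other tag carrier, had another order. Its level was 753 CPM in primed (743 to 764), 1509.8 in d8 (1504 to 1516), 1027 in d16 (1019 to 1035), 535 in d16+10p (526 to 544) and 627 in naive (615 to 639). It was highest in d8, and again no intervals overlapped. In Pou5f1-high cells it was 494 CPM in naive, 284 in primed and 474 in d16+10p, and in Dppa5a-high d16 cells 455. The primed-tagged cells outside the Pou5f1-high clusters had 1047 CPM. The whole primed tag stood above naive and its Pou5f1-high cells stood below naive, so the order of primed and naive in Cd63 depended on which cells were counted. The summed level of 8 fibroblast markers was 465 CPM in the primed Pou5f1-high cells and 2542 CPM in the other primed-tagged cells, with 0 of the 8 markers without a read in either, and its part in the Cd63 level was not tested.

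Reads of Cd63 may be shared with a near copy. The pseudogene row Cd63-ps held 5.74 to 6.65% of the number of Cd63 reads in the groups compared, and its level followed Cd63 over the clusters with a Pearson r of 0.996. Cd63 is therefore uncertain by about that share, and adding the reads of the copy moved no count of members past 2-fold. Cd9-ps held at most 2 reads in any population.

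Cd81, the vesicle marker that pairs with CD9, was 345 CPM in primed, 512 in d8, 497 in d16, 227 in d16+10p and 239.8 in naive. Its Pou5f1-high levels were 199 in naive, 195 in primed and 205 in d16+10p, with overlapping intervals. Cd151, the integrin partner, was 140.4 CPM in primed, 192 in d8, 151 in d16, 94.5 in d16+10p and 102 in naive. Both genes were highest in d8 and lowest in the naive and d16+10p tags. In Pou5f1-high cells Cd151 was 93.1 CPM in naive, 112 in primed and 89.7 in d16+10p, with primed the highest of the 3.

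Cd82, Cd53 and Cd37 had few reads. Cd82, the motility suppressor, was 11.01 CPM in primed, 7.22 in d8, 21.2 in d16, 4.46 in d16+10p and 6.96 in naive, highest in d16. Cd53, a leukocyte protein, was 13.1 CPM in primed, 43.4 in d8, 13.1 in d16, 8.92 in d16+10p and 10.7 in naive, highest in d8. Cd37, known from lymphocytes, had 21 reads in primed, 193 in d8, 81 in d16, 84 in d16+10p and 122 in naive, which gave 0.753, 1.07, 1.45, 3.20 and 7.07 CPM. Naive cells were the highest in Cd37, and the naive and d16+10p intervals lay above those of the other 3 tags.

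**Figure D1:**
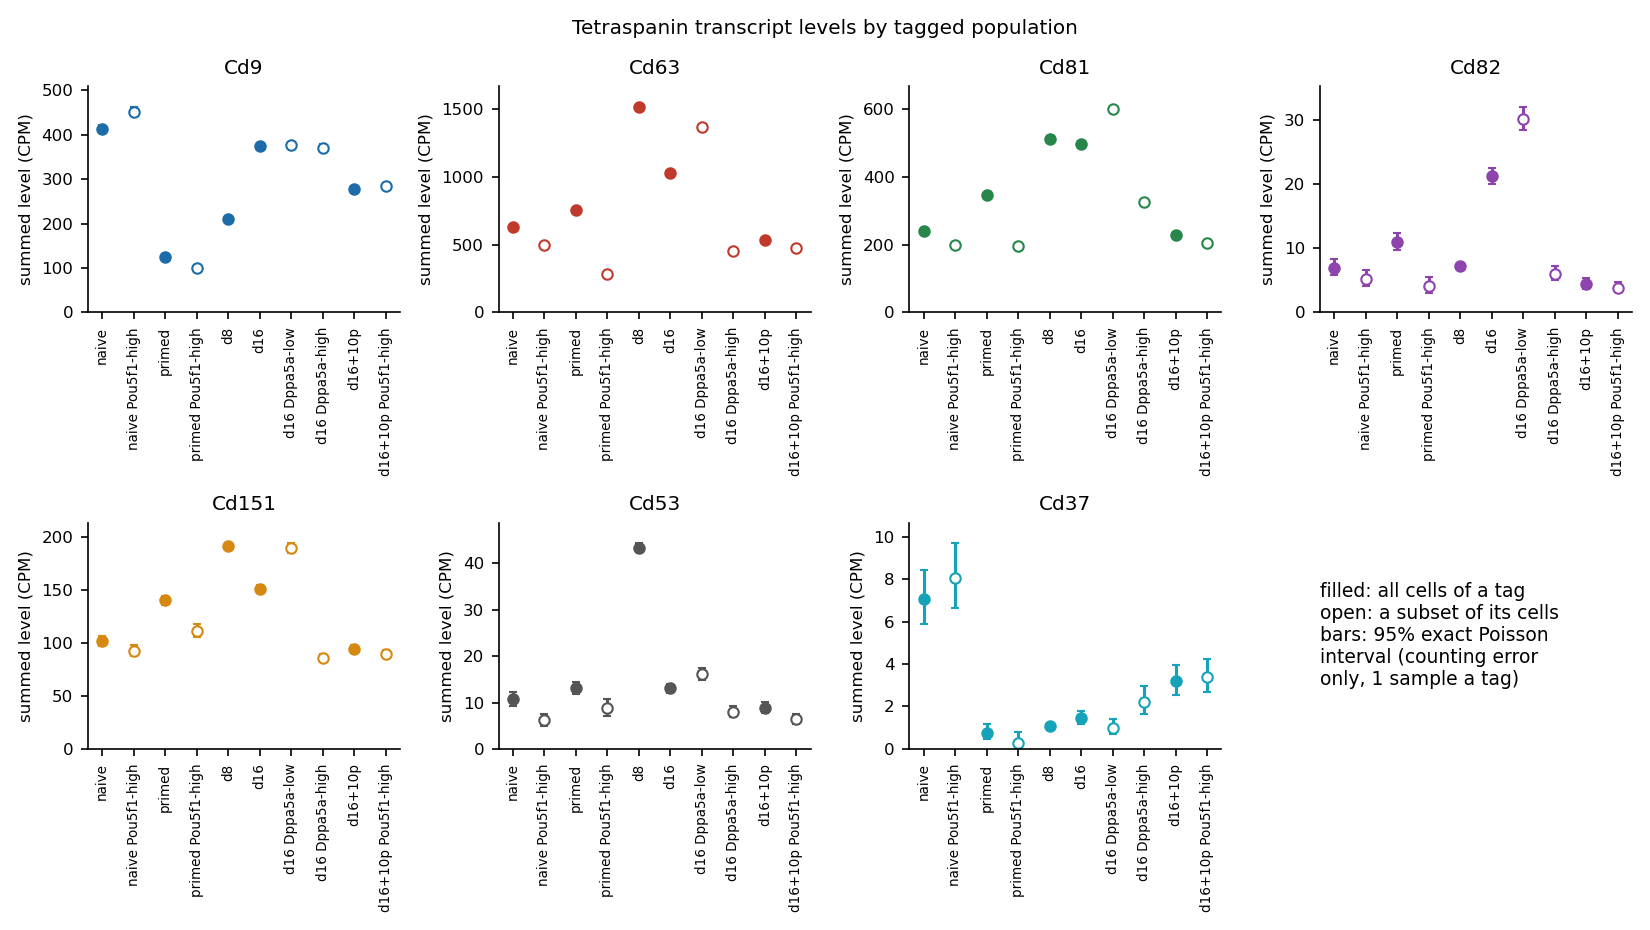
Summed level in CPM of each tetraspanin gene (vertical axis, from 0) in the 5 tagged populations and in subsets of their cells, with 95% exact Poisson intervals. Cd9 is lowest in primed cells at 124 CPM and Cd63 highest in d8 cells at 1509.8 CPM, and Cd63 of the primed Pou5f1-high cells is 284 CPM.

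Primed and naive cells were compared to see which tetraspanins differ between the starting state and the target state. A gene was called when its log2 ratio (of CPM + 1) was at least 2-fold either way, and only genes that reached 10 CPM in 1 of the groups and 100 reads over both were tested. Cd9 was called, with a log2 ratio of -1.73 (interval without the pseudocount -1.79 to -1.68), a 3.31-fold lower level in primed cells at percentile 2.32 of all genes tested. Of the 7 members 6 passed the filter on low values and 1 was called, where 8.25% of all 10549 genes tested were called. Cd63 (0.27), Cd81 (0.52), Cd82 (0.59), Cd151 (0.45) and Cd53 (0.27) had positive log2 ratios within 2-fold.

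Between Pou5f1-high cells the log2 ratio of Cd9 was -2.17 (-2.28 to -2.09), a 4.50-fold lower level in primed cells. Here 1 of the 4 members past the filter was called, against 10.9% of all genes tested. The log2 ratio of Cd63 was -0.79 and that of Cd81 -0.03, so both turned sign from the whole-tag comparison. Cd37 was under the filter in both comparisons, and had 3 reads in the primed Pou5f1-high cells (0.280 CPM, 0.0577 to 0.817) and 113 reads in the naive ones (8.06 CPM, 6.65 to 9.69).

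Other tetraspanins and known partners were compared between whole tags only. The primed tag includes 1353 of 1826 cells outside the Pou5f1-high clusters. Of the 24 other tetraspanin genes listed, 14 passed the filter, of which 3 were at least 2-fold higher in the primed tag and 0 lower. These were Tspan7 (log2 ratio 1.23), Tspan6 (1.13) and Tspan12 (1.08), a coreceptor for the ligand Norrin. Of 20 known partners 17 passed, and Epcam, the epithelial adhesion protein, was higher (1.34). The median log2 ratio was 0.36 over the 6 members, 0.51 over the other tetraspanins and 0.35 over the partners, beside 0.08 over all genes tested.

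Against primed cells, d8 cells had more Cd63 and Cd53. The log2 ratio of Cd63 was 1.00 (0.98 to 1.02), just past 2-fold, and that of Cd53 was 1.66 (1.58 to 1.88). Of the 6 members past the filter 2 were called, where 6.81% of all genes tested were. Cd9 (0.76), Cd81 (0.57) and Cd151 (0.45) were within 2-fold, as was Cd82 (-0.55). Against the primed Pou5f1-high cells, 4 of the 5 members past the filter were called and all 4 were higher in d8: Cd63 (log2 ratio 2.41), Cd53 (2.19), Cd81 (1.39) and Cd9 (1.07). In that comparison 22.5% of all genes tested were called.

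The Cd53 level moved with cells of a macrophage-like cluster. Cluster 8 had all 10 macrophage markers at least 2-fold up, held 8.53% of d8 cells (exact binomial interval 7.98 to 9.10) and 0.782 to 2.87% of the other tags, and held 71.9% of all Cd53 reads. The summed level of the 10 markers was 3069 CPM in d8 and 513 to 894 CPM in the other tags, with 0 markers without a read. Without cluster 8, Cd53 was 10.3 CPM in d8 (9.78 to 10.8) and 7.97 CPM in primed (6.95 to 9.10).

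None of the 13 other tetraspanins past the filter was called between d8 and the whole primed tag. Of 19 partners past it, 4 were higher in d8 and 0 lower: Cd36, a fatty acid and lipoprotein receptor (1.55), Cd44, the hyaluronan receptor (1.39), Hbegf, a growth factor that binds CD9 (1.32), and Itga5, a chain of the fibronectin receptor (1.21).

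From d8 to d16 the tetraspanins differed in both directions. Cd82 was higher in d16, at 21.2 against 7.22 CPM (log2 ratio 1.44, 2.71-fold), and Cd53 lower (-1.66, 3.16-fold), which made 2 of 6 members called where 12.2% of all genes tested were. Without the macrophage-like cluster, Cd53 was 8.12 CPM in d16 and 10.3 CPM in d8. Cd9 had a log2 ratio of 0.83 (0.81 to 0.86), Cd63 of -0.56 (-0.57 to -0.54), Cd151 of -0.34 and Cd81 of -0.04. The level of Cd9 was therefore higher and that of Cd63 lower in d16, both within 2-fold. Markers of several cell types moved between the same tags. From d8 to d16 the summed level went from 488 to 2808 CPM for the 8 pluripotency markers, from 233 to 541 CPM for the 7 neural and from 1536 to 2447 CPM for the 8 fibroblast markers. It went from 2738 to 896 CPM for the 8 epithelial and from 1175 to 512 CPM for the 7 smooth muscle markers, with 0 markers of these lists without a read, and their part in the tetraspanin ratios was not tested.

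Of 15 other tetraspanins past the filter, 4 were called higher in d16 and 0 lower: Tspan33 (1.61), Tspan18 (1.57), Tspan15 (1.38), which escorts the protease ADAM10, and Tspan12 (1.05). Among 19 partners, Igsf8, a direct partner of CD9 and CD81, was higher (1.21), and Cd36 (-1.67) and Itga5 (-1.14) were lower.

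**Figure D2:**
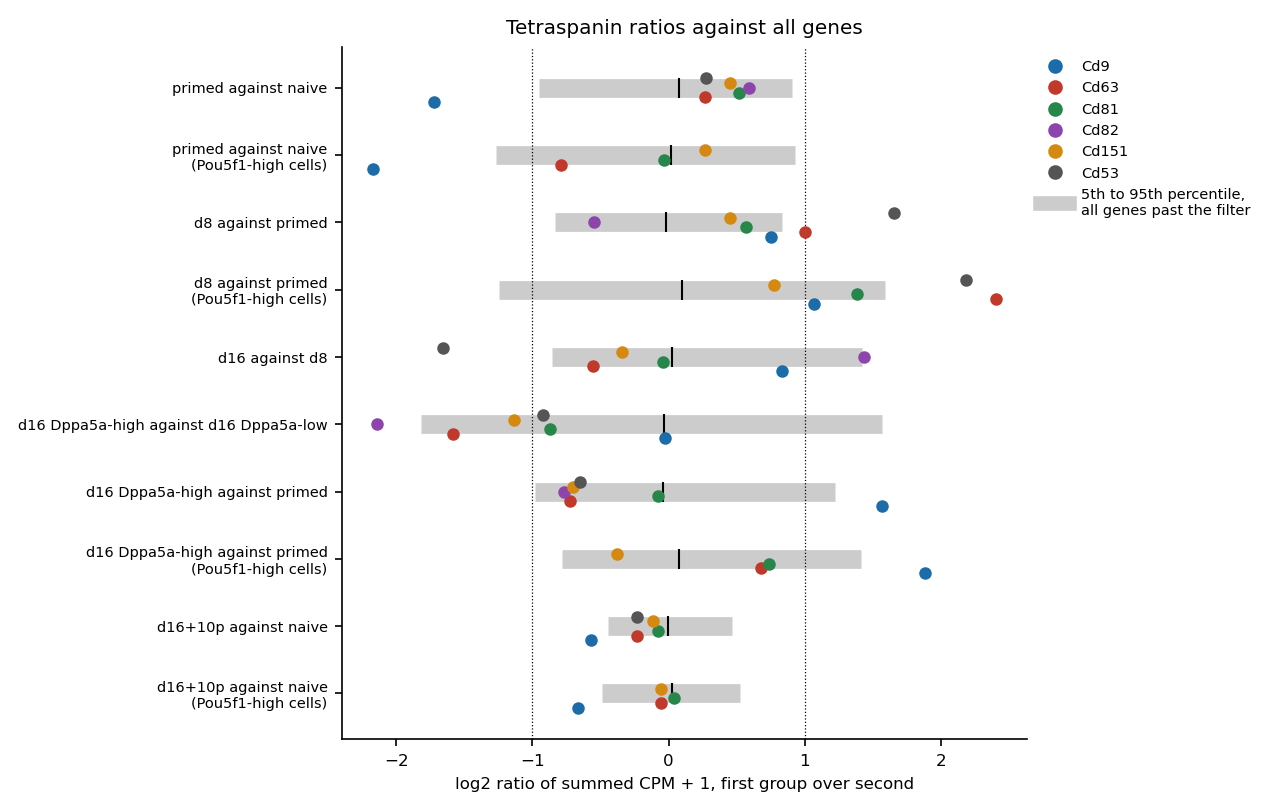
Log2 ratio (horizontal axis) of each member past the low-value filter in the comparisons, over the range from the 5th to the 95th percentile of all genes tested (grey bars). Cd9 lies left of the bar in primed against naive (-1.73) and right of it in Dppa5a-high d16 against primed cells (1.57).

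The d16 cells were compared within their tag, Dppa5a-high against Dppa5a-low. Cd9 was 371 CPM in Dppa5a-high and 377.5 CPM in Dppa5a-low cells, with overlapping intervals (362.6 to 379 and 371 to 384). The other 5 members past the filter were all lower in Dppa5a-high cells: Cd82 (log2 ratio -2.15), Cd63 (-1.58, 455 against 1366 CPM), Cd151 (-1.14), Cd53 (-0.92) and Cd81 (-0.87). The first 3 of these were past 2-fold, 3 of 6 members, where 27.8% of all genes tested were called. The summed fibroblast markers were 546 CPM in Dppa5a-high and 3574 CPM in Dppa5a-low cells, with 0 of the 8 without a read. In the same order, neural markers were 162 and 766 CPM and macrophage markers 298.5 and 987 CPM. Epithelial markers were 671 and 1030 CPM and smooth muscle markers 272 and 655 CPM. Pluripotency markers went the other way, at 6563 and 582 CPM. The part of these cell types in the ratios was not tested. Cd37 had 46 reads (2.21 CPM) in Dppa5a-high and 35 reads (0.999 CPM) in Dppa5a-low cells, under the filter.

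The Dppa5a-low cells were of unlike kinds in Cd9. Cluster 3, led by Fabp7, Hepacam2 and Rfx4, and the fibroblast-like cluster 6, led by Col3a1, both consist mainly of d16 cells and have 97.9 and 89.6 CPM of Dppa5a. Their d16-tagged cells had 494 CPM (484 to 504) and 179 CPM (169.5 to 189) of Cd9, above and below the 368 CPM of the d16-tagged cells of the Pou5f1-high cluster 5. In Cd63 the same 3 sets of cells had 1371, 1442 and 386 CPM, so that both low-Dppa5a clusters stood above cluster 5.

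In bins of Dppa5a, the level of Cd9 stayed between 354 and 379.6 CPM. Cd63 was lower at every step, from 1388 CPM in the 2675 cells with under 250 CPM of Dppa5a to 1011 in the 111 cells just under the split, 697 in the 184 cells just over it and 360.1 in the 538 cells at 4000 and above. Over the same bins Cd81 went from 609 to 291 CPM and Cd151 from 193 to 70.9 CPM. Cd82 was 30.4 CPM in the lowest bin, 39.0 in the next and 5.38 in the highest. Cd53 went from 16.9 CPM in the lowest bin to 8.88 in the highest without a steady course, with 13.8 CPM just over the split. Cd37 was 0.857 CPM in the lowest bin and 1.73 to 2.69 CPM in the others, on 3 to 27 reads a bin. Among the 5 members with more reads than these, Cd9 was thus the one whose level did not go down from the lowest to the highest bin beyond its interval.

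**Figure D3:**
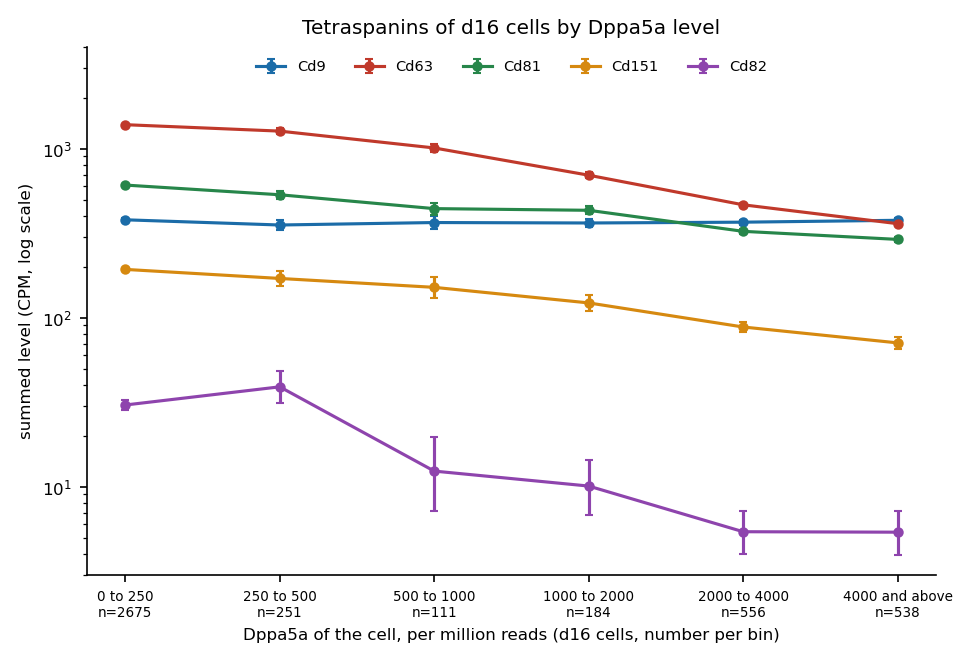
Summed level in CPM (log scale) of tetraspanin genes in d16 cells binned by their own Dppa5a in CPM, with 95% exact Poisson intervals. Cd9 stays between 354 and 379.6 CPM while Cd63 goes from 1388 to 360.1 CPM.

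Among the 15 other tetraspanins past the filter, 7 were at least 2-fold lower in Dppa5a-high cells and 0 higher, with Tspan12 (-2.40), Tspan18 (-1.92), Tspan2 (-1.43), Tspan3 (-1.39) and Tspan7 (-1.37) first by size. Of 18 partners 7 were lower and 0 higher, first Igsf8 (-1.80), the membrane protease gene Adam10 (-1.69), the laminin receptor chain Itgb4 (-1.51), Cd44 (-1.51) and the lysosomal membrane protein gene Lamp2 (-1.38). The median log2 ratio was -1.03 over the 6 members, -0.98 over the other tetraspanins and -0.73 over the partners, beside -0.04 over all genes tested.

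Dppa5a-high d16 cells were compared with the whole primed tag, and Cd9 was the member called. Of the 1826 primed-tagged cells, 1353 lay outside the Pou5f1-high clusters, so the tag is not only the epiblast cells of origin. Its log2 ratio was 1.57 (1.52 to 1.64), a 2.97-fold higher level at percentile 96.1 of all genes tested. It was 1 of 6 members past the filter, where 11.3% of all genes tested were called. Against the primed Pou5f1-high cells the ratio was 1.88 (1.80 to 1.99), 3.69-fold, again 1 member called, of 4, where 11.3% were called. Cd63 had a log2 ratio of -0.73 against the whole primed tag and of 0.68 against its Pou5f1-high cells, and Cd81 of -0.08 and 0.74. The direction of both therefore depended on the primed cells used, and that of Cd9 did not. Of 12 other tetraspanins past the filter, Tspan7 (-1.21), Tspan6 (-1.20) and Tspan12 (-1.10) were lower than in the whole primed tag, as was Itga3 (-1.21), a laminin receptor chain, of 17 partners.

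After expansion the tetraspanins past the filter stood within 2-fold of naive cells. Of the 5 members past the filter 0 were called between d16+10p and naive cells, where 1.48% of all genes tested were. Cd9 had the largest difference of these 5, with a log2 ratio of -0.57 (-0.62 to -0.53) at percentile 2.52 of all genes tested, a 1.49-fold lower level in d16+10p cells. Cd63 (-0.23), Cd53 (-0.23), Cd151 (-0.11) and Cd81 (-0.08) followed. In Pou5f1-high cells the values were -0.66 for Cd9, -0.06 for Cd63, -0.05 for Cd151 and 0.04 for Cd81, with 0 of 4 members called where 2.05% of all genes tested were. Cd37, under the filter, was lower in d16+10p at 3.20 CPM against 7.07 CPM, and at 3.40 against 8.06 CPM in Pou5f1-high cells. Between the whole tags, the other 12 tetraspanins and 17 partners past the filter had 0 genes past 2-fold. The d16+10p and naive cells also differ in cell line.

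The share of cells in which a gene was read was taken after every cell had been thinned to 5000 reads, with shallower cells left out (271 of primed, 755 of d8, 604 of d16, 69 of d16+10p, 68 of naive). A Cd9 read was found in 39.7% of primed, 49.0% of d8, 69.4% of d16, 66.5% of d16+10p and 76.4% of naive cells. This was the order of the levels, but the d16 (67.93 to 70.92%) and d16+10p (63.64 to 69.35%) intervals overlapped. Without thinning the shares were 63.1, 73.3, 80.0, 88.4 and 88.9%, with primed again the lowest but d16+10p above d16. A Cd63 read was found in 83.5% of primed, 97.3% of d8, 91.3% of d16, 86.8% of d16+10p and 88.1% of naive cells after thinning. Without thinning these were 95.2 to 98.8%.

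Transcripts of macrophages were read in all populations. Lyz2, a macrophage gene, had a read in 55.4 to 57.1% of the thinned cells of each tag, where macrophage-like cells were at most 8.53%, and the source of these reads was not tested. A Cd53 read was found in 2.34 to 4.12% of Pou5f1-high and Dppa5a-high cells. Whether these cells transcribe Cd53 themselves was not tested. The share was 3.51 to 4.95% of naive, primed, d16 and d16+10p cells as a whole and 9.78% of d8 cells. The share of d8 was the highest, with an interval (9.17 to 10.4%) above those of the other 4 tags. For Cd9 and Cd63 no cell type without the transcript was at hand, and the lowest of the larger clusters, cluster 12, still had 84.8 and 282 CPM.

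Reads of both tag carriers were missing most often in primed cells. After thinning, cells with neither a Cd9 nor a Cd63 read made up 10.6% of primed (9.12 to 12.2), 1.61% of d8 (1.36 to 1.90), 2.16% of d16 (1.71 to 2.68), 3.97% of d16+10p (2.89 to 5.32) and 1.36% of naive cells (0.656 to 2.50). In primed Pou5f1-high cells the share was 23.6% (19.8 to 27.8), against 1.08% in naive and 3.91% in d16+10p Pou5f1-high cells. Primed Pou5f1-high cells were thus the group with the least transcript of the genes whose proteins carried the tags. In d8, 49.4% of cells had a Cd63 read only and 1.14% a Cd9 read only, while in Dppa5a-high d16 cells the shares were 20.2 and 16.2%. The CD9 and CD63 proteins and the tag reads were not analysed here.

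Across the 15 clusters of at least 100 cells, each tetraspanin had its own range. Cd9 went from 84.8 CPM in cluster 12 (primed cells, led by Pim2, Enpp3 and Wnt8a) to 629.7 CPM in the macrophage-like cluster 8, with 471 CPM in cluster 3 and 456 CPM in the naive cluster 11 next. Cd63 went from 282 CPM, also in cluster 12, to 1949 CPM in cluster 0 (d8 cells, led by Lox, Olr1 and Ccl2), and was 1899.9 CPM in the smooth muscle-like cluster 4. The 4 Pou5f1-high clusters were the lowest 4 of the 15 in Cd63 and in Cd81, but not in Cd9. Cd81 was highest in cluster 3 at 669 CPM. Cd151 went from 78.8 CPM in cluster 5 to 288 CPM in cluster 4. Cd82 was highest in the fibroblast-like cluster 6 at 55.9 CPM, with 28.8 CPM in cluster 3 and 3.82 CPM in cluster 12.

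Cd53 was 359.5 CPM in cluster 8 (350.9 to 368), 18.7 CPM in cluster 0 and at most 8.98 CPM in the other 13. Tyrobp, an adaptor of myeloid receptors, was 902 CPM in cluster 8, 14.9 CPM in cluster 0 and 11.8 to 20.4 CPM in the other 13. Cd53 thus stood higher in cluster 0 than in the other 13 clusters, and Tyrobp did not. Cd37 was 6.27 CPM in cluster 8 (5.19 to 7.52), 7.79 CPM in cluster 11 (6.36 to 9.45), 3.58 CPM in cluster 7 and 0.289 CPM in cluster 2. In the naive cluster 11 Tyrobp was 13.6 CPM and Lyz2 196 CPM, near their medians of 14.2 and 200.4 CPM over the clusters other than cluster 8, while Cd37 was at its highest there.

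**Figure D4:**
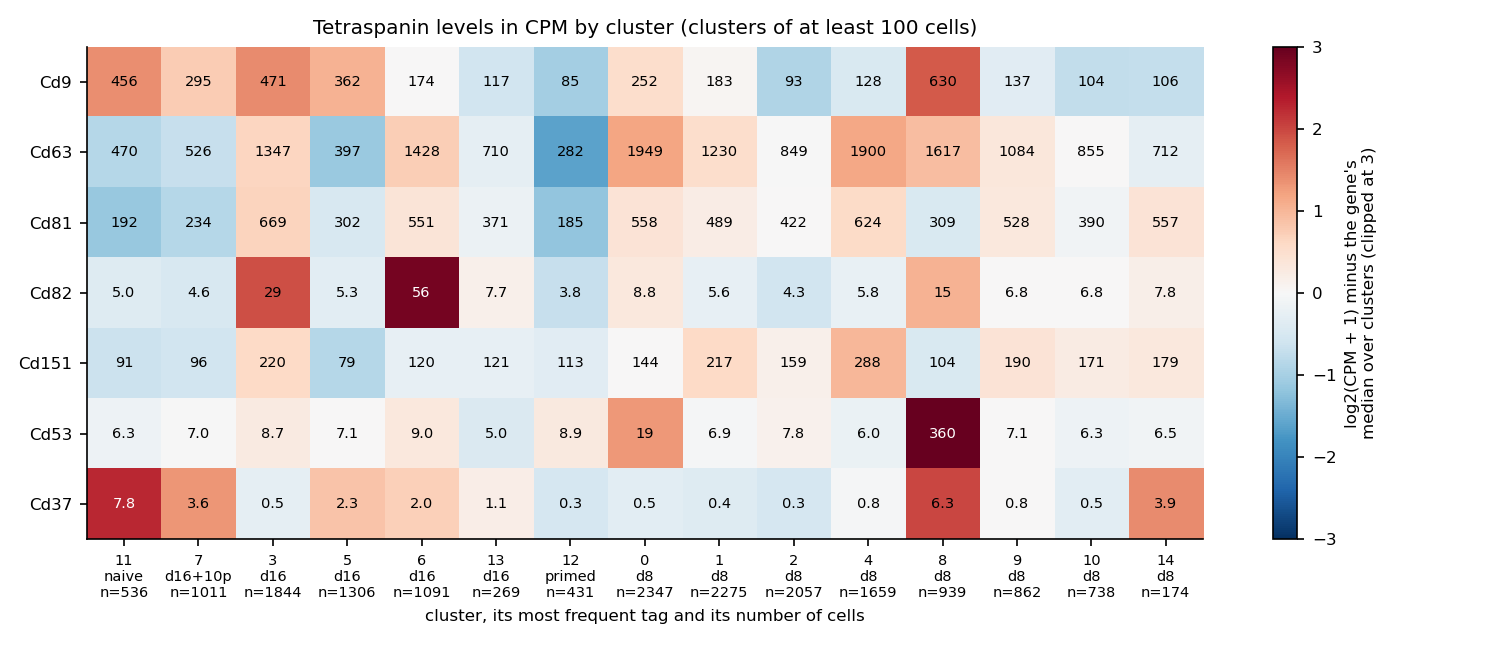
Summed level in CPM (printed in each square) of the 7 genes in the 15 clusters of at least 100 cells, coloured by the difference from the gene's median over clusters on the log2 scale. Cd53 stands out in the macrophage-like cluster 8 (359.5 CPM), Cd82 in clusters 3 and 6, and Cd9 and Cd63 are both lowest in cluster 12.

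Cd63, Cd81 and Cd151 went together over these 15 clusters, as a description over points that share 1 library. On the log2(CPM + 1) scale, Cd63 and Cd81 had a Pearson r of 0.789, Cd81 and Cd151 of 0.777, and Cd63 and Cd151 of 0.605. Cd9 had an r of 0.149 with Cd63, -0.171 with Cd81 and -0.393 with Cd151. No background of r over all genes was taken, so how unusual these values are is not known. The genes named next were picked as the highest r among all genes past a filter on low values, so their r is high by selection. The genes most like each member were Agpat2 (0.892), Ddrgk1 and Mtm1 for Cd9, Cd63-ps, Rit1 (0.957) and Ppt1 for Cd63, Klf6 (0.925), Galnt1 and Fam91a1 for Cd81, and Agpat4 (0.910), Calcoco1 and Pdlim7 for Cd151. For Cd82 they were Lbp (0.916), Lcn2 and Sod3, and for Cd53 Gpnmb (0.990), Cd200r4 and Ccr1.

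Cd9 also differed between tags inside clusters. The tags were read through CD9 and CD63 protein, so the groups compared here rest on the product of Cd9 itself. In 7 clusters d8 was the most frequent tag and at least 20 cells had the d16 tag. In 6 of them the d16-tagged cells had more Cd9 than the d8-tagged cells, with intervals apart. The values were 398 against 248 CPM in cluster 0, 267 against 183 CPM in the epithelial-like cluster 1, and 160.0 against 89.5 CPM in cluster 2, led by Fgf15 and Lefty1. They were 259.6 against 123 CPM in the smooth muscle-like cluster 4, 335 against 117.5 CPM in cluster 9, led by Pga5, Cfc1 and Cer1, and 304 against 92.1 CPM in cluster 10, led by T, Lrrn3 and Shh. In the macrophage-like cluster 8 they were 618 and 639 CPM, with overlapping intervals. The primed-tagged cells of the 6 clusters had 86.2 to 180.4 CPM and stood in none of them above the d8-tagged cells with intervals apart.

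Cd82 went the same way in 4 of the 7 clusters, all among the 6 of Cd9, and was lower in none, with intervals apart. In cluster 0 it was 21.5 CPM in d16-tagged and 8.30 CPM in d8-tagged cells, and the d16-tagged values of these 4 clusters rest on 11 to 32 reads each. Cd63 was higher in d16-tagged cells in 1 of the 7 clusters and lower in 2, Cd81 was higher in 1 and Cd151 in 2, each with intervals apart, and the rest overlapped. The d16-tagged cells were 34 to 81 per cluster. Their Dppa5a level was 117 to 287 CPM in the 6 clusters with more Cd9, and that of the d8-tagged cells was 70.1 to 90.8 CPM. The 7 neural markers were also higher in the d16-tagged cells of all 6, at 232 to 507 CPM against 124.5 to 370.9 CPM, and cluster 3, with 4 of the 7 neural markers at least 2-fold up, was among the clusters with most Cd9. The 8 pluripotency markers were higher in 5 of the 6, cluster 9 being the exception (494 against 536 CPM). In cluster 8, where the Cd9 intervals overlapped, these were higher in d16-tagged cells too. The neural markers were 549 against 122 CPM there, the pluripotency markers 512 against 321 CPM and Dppa5a 137.5 against 111.9 CPM. The median depth of d16-tagged cells was higher in clusters 0, 1, 4, 8 and 10, for example 22379 against 17663 reads in cluster 0. It was lower in clusters 2 and 9. The part of these in the Cd9 and Cd82 results was not tested. Whether the d16-tagged cells of these clusters carry the right tag was not tested either.

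**Figure D5:**
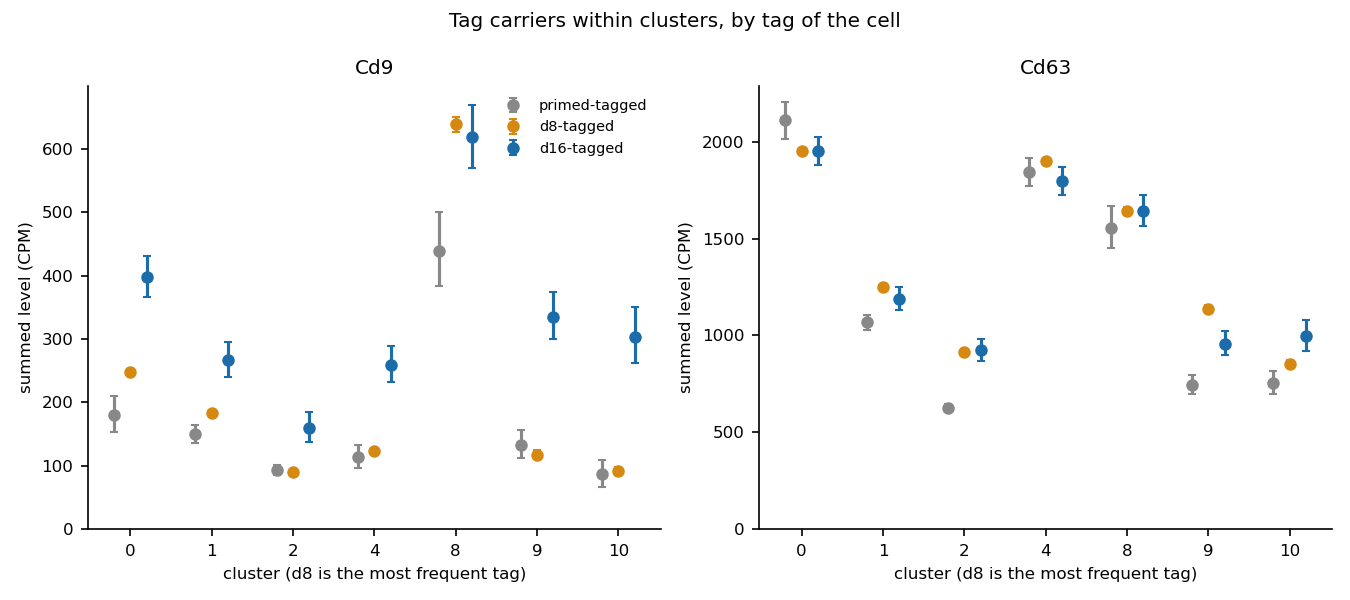
Summed level in CPM of Cd9 and Cd63 in cells of different tags within the clusters led by d8 cells, with 95% exact Poisson intervals. For Cd9 the d16-tagged cells lie above the d8-tagged cells in all of the 7 clusters but cluster 8 (618 and 639 CPM), and for Cd63 in cluster 10 alone with intervals apart.

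Cells that sat in a cluster under another tag than its most frequent one were pooled and compared with that tag in the 12 clusters with at least 20 cells of each of 2 or more tags. The median log2 ratio was 0.08 for Cd9 (range -1.02 to 0.91 over clusters) and -0.10 for Cd63 (-0.42 to 0.91). For Cd9 the other-tag cells were higher in 6 clusters and lower in 3, and for Cd63 higher in 2 and lower in 5, with intervals that excluded 0. In cluster 7, where most cells are d16+10p, the 89 d16-tagged cells had 901 CPM and the 30 naive-tagged cells 926 CPM of Cd63, against 472 CPM in the d16+10p-tagged cells. The d16-tagged cells there had 1271 CPM of the fibroblast markers against 467 CPM, and the naive-tagged cells had 1953 CPM of 8 epithelial markers against 735 CPM. The part of other cells' RNA, or of wrong tags, in these Cd63 levels was not tested.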

How the data were processed

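The authors deposited 1 table of raw read counts per gene symbol and cell, made with the BD Rhapsody system. Per the study's methods and the labels, reads were trimmed with cutadapt 2.10 and aligned with Bowtie2 2.3.4.1 to mouse GRCm38 transcripts, reads of 1 gene symbol were counted per cell barcode with no collapsing by molecular identifiers, and cells were assigned to tags with likely doublets removed. The labels name Seurat 2.3.4 for the later steps, and the study's methods name a later Seurat version. No doublet caller was run here. All 17720 cells and 33963 genes were kept, and 0 columns of cells were left unused. The study analysed fewer of the 17720 cells, after a quality check, so the set of cells here differs from the study's.

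Counts were summed per tag and divided by the group total (CPM). Ratios are log2 of CPM + 1, called at 2-fold, and genes below 10 CPM in both groups or under 100 reads over both were not tested. With 1 sample per population no test across populations is possible, and no p-value is given. The intervals (95%, exact Poisson for levels, exact conditional binomial for ratios, Clopper-Pearson for shares) cover counting error only, and reads are not independent molecules, so true intervals are wider. Cells were clustered in Seurat 5.3.0 (R 4.3.3) with 2000 variable genes, 56 components, 50 neighbours and resolution 0.8. A cluster was named only from a marker list. TMM factors came from edgeR 4.0.16. Other steps used Python 3.11.15, numpy 2.4.6, pandas 2.3.3 and scipy 1.17.1. The ratio intervals were checked on simulated Poisson counts, in which reads are independent. Clustering, thinning and the comparisons within clusters were not simulated.

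The members and gene lists were chosen with earlier results of these data known. From each list up to 5 genes per direction and comparison are named, by size among those past 2-fold, and the 3 genes of highest r over clusters for each member. Promoter windows came from RefSeq and gene positions from GENCODE.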

Additional observations from a re-analysis of the deposited data

How the results depend on the processing

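The count of members past 2-fold was within 1.5 times the reported one in 47 of 54 recomputations. With no filter on low values, primed against naive gave 2 members, Cd37 being the added one. For d8 against primed, a pseudocount of 10 CPM and a total without mitochondrial genes each gave 1 member, as Cd63 stood just past 2-fold. Pou5f1-high cells only gave 4, as did the largest Pou5f1-high cluster alone, an alternative chosen after seeing the data. For d16 against d8, a pseudocount of 10 CPM gave 1, Cd53. For Dppa5a-high d16 against primed cells, the mean of CPM per cell gave 3, Cd9, Cd63 and Cd82.

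Of 336 recomputed log2 ratios 121 moved beyond the counting interval of the reported ratio. A change of sign occurred in 20 of the 336, none of them of a called member. The 10 recomputed medians over clusters moved by less than the standard deviation of the ratios over clusters. That limit is wide beside medians of 0.08 for Cd9 and -0.10 for Cd63, so it cannot show that they are stable. TMM scaling moved the median of all genes by -0.10 between d16 and d8. Of 70 shares of cells with a read 64 moved beyond their intervals with the thinning depth. Limiting cells to Pou5f1-high clusters changes nothing by construction in the 2 comparisons without naive, primed or d16+10p cells. Cd82, Cd53 and Cd37 rest on few reads. No paired analysis was possible because each population was 1 sample.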
